A study of Mus musculus with 18 samples.

Results

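The comparison described here is that of splenic monocytes from Dectin-1 knockout mice given IVIg with monocytes from wild-type (WT) mice given IVIg, 3 libraries against 3 of the 18 libraries in the series. The libraries were chosen by their genotype and treatment labels. Genes were then separated by position, into those starting within 10 Mb of Clec7a on mouse chromosome 6 and all others. Of the 17040 genes tested, 225 lay within 10 Mb and 16815 elsewhere, and the deposited table lists 624 genes within 10 Mb in all.

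The knockout mice were homozygous for loss of Dectin-1 (Dectin-1-/-) and the WT mice were C57BL/6. Both received IVIg, a preparation of pooled immunoglobulin G, and monocytes sorted from their spleens carry the time label of day 3. Dectin-1 knockout and C57BL/6 mice given phosphate-buffered saline (PBS), 3 libraries each, served to show the same genotype difference without IVIg in other mice, and 6 libraries of FcgRIIb knockout mice (FcgRIIb-/-) entered the fit only. The design text gives 3 independent mice per group. The titles carry a second code of unstated meaning. WT IVIg replicate 3 shares its code with an FcgRIIb knockout PBS library, Dectin-1 knockout PBS replicates 2 and 3 share 1 code, and so do FcgRIIb knockout PBS replicates 1 and 2, so the independence of these libraries rests on the design text. Sex, age, IVIg dose, the sorting gate, the strain in which the knockout was made and its backcrosses are not given in the sources used here. Loss of Dectin-1 and any other difference between knockout and C57BL/6 chromosomes around Clec7a therefore cannot be told apart by these groups.

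Dectin-1 is a C-type lectin of myeloid cells that binds beta-glucans of fungal walls and signals through the kinase Syk and the adaptor Card9 to NF-kappa-B. Its gene, Clec7a, stands in the natural killer gene complex, a run of lectin-like receptor genes that includes the myeloid receptors around Clec7a and the Klr receptors, best known from natural killer cells. IVIg acts on cells through Fc gamma receptors, among them the inhibitory receptor FcgRIIb, and the series compared IVIg with PBS in mice with and without Dectin-1 or FcgRIIb. Splenic monocytes comprise a classical, Ly6C-high subset and a non-classical, patrolling subset that depends on Nr4a1.

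Total counts were 16996494, 41615608 and 45510768 in Dectin-1 knockout IVIg replicates 1, 2 and 3, and 40561626 to 48958909 in the WT IVIg libraries, so replicate 1 of the knockout was the shallowest of the 6. One FcgRIIb knockout PBS library of the fit held only 719494 counts. Markers of monocytes were examined in the 6 libraries. Cx3cr1, the fractalkine receptor of non-classical monocytes, had 1193, 834 and 1081 CPM (counts scaled to library size) in knockout libraries against 1007, 1006 and 1232 CPM in WT libraries. All 33 non-classical and all 30 classical markers passed the filter on low counts. So did all 20 B cell and all 25 T cell genes listed, so passing it does not show identity. Classical markers summed to 17101 to 21555 CPM in knockout libraries and 14492 to 21037 CPM in WT libraries. Non-classical markers summed to 11642 to 13693 CPM in knockout libraries and 13867 to 17170 CPM in WT libraries, a narrow gap without overlap. With PBS the non-classical sums overlapped, at 12647 to 14280 CPM in knockout and 9946 to 12701 CPM in WT libraries. In the same groups T cell genes summed to 36.4 to 48.2 and 26.4 to 70.0 CPM, and B cell genes to 442.3 to 622.2 and 480.8 to 717.8 CPM. In bulk libraries, fewer cells of a type and less RNA per cell cannot be told apart.

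Between Dectin-1 knockout and WT monocytes 9 genes were called with IVIg, which is 0.0528% of the genes tested (edgeR quasi-likelihood F-test, Benjamini-Hochberg adjusted p under 0.05). Of these, 4 were higher in the knockout (0.0235% of genes) and 5 were lower (0.0293%). The higher ones were Hebp1, Klra17, Emp1 and Retnlg, and the lower ones were Clec7a, Eps8, Klri2, Klrk1 and Klrb1b. All but Retnlg start within 10 Mb of Clec7a. Thus 8 of 225 genes there were called, 3.56%, against 1 of 16815 elsewhere, 0.00595%.

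**Figure D1:**
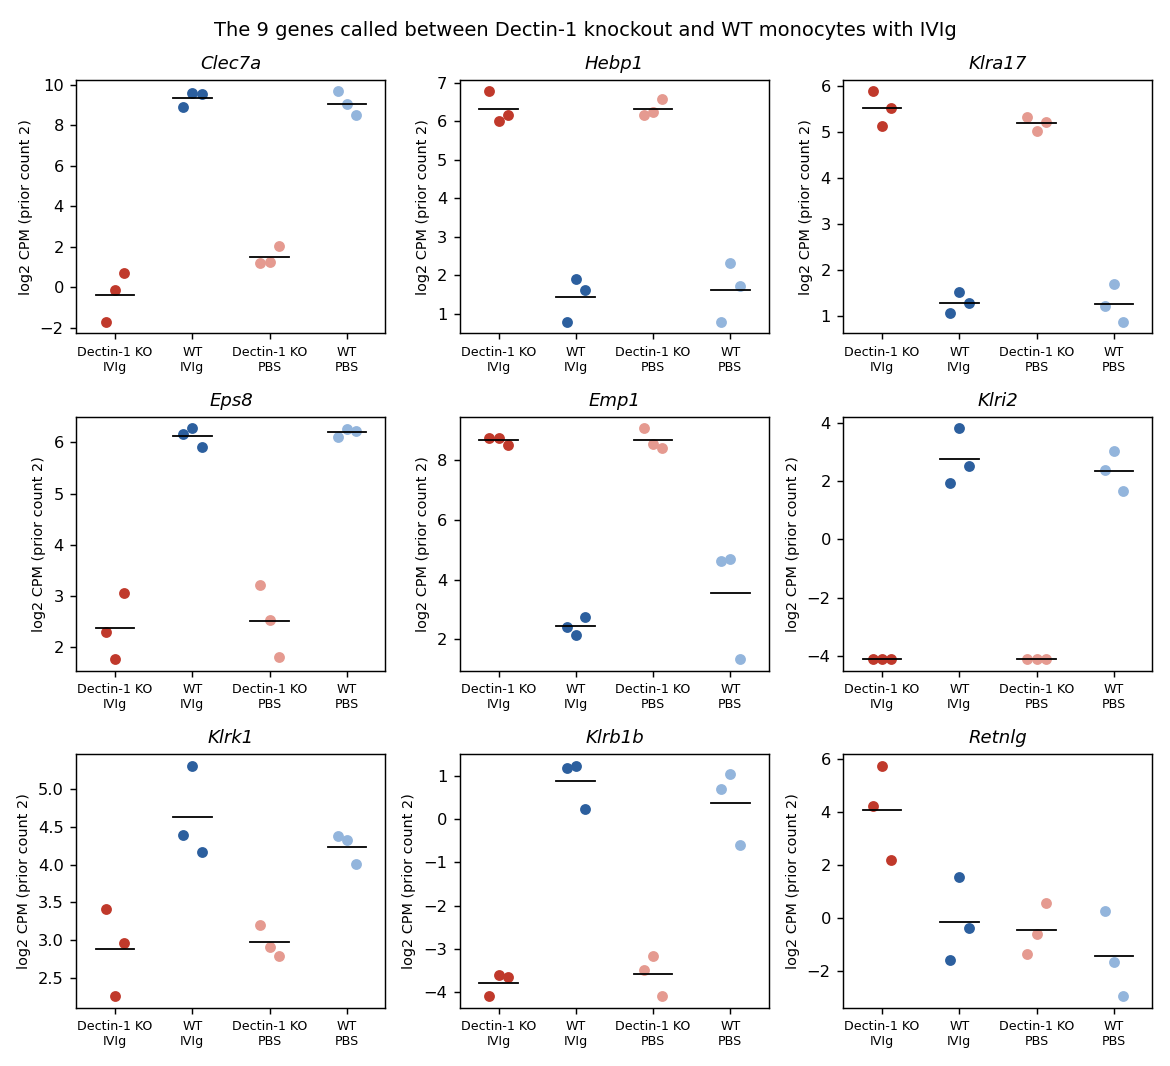
Log2 CPM (prior count 2) of the 9 called genes in single libraries, as points, with the group mean as a bar, for Dectin-1 knockout IVIg, WT IVIg, Dectin-1 knockout PBS and WT PBS mice. For the 8 genes near Clec7a the PBS groups are separated in the same direction as the IVIg groups, while Retnlg is high only in knockout IVIg libraries, with replicate 3 lowest among them.

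Clec7a itself was nearly absent from the knockout. It had 0.247, 0.860 and 1.55 CPM in Dectin-1 knockout IVIg libraries, against 483, 766 and 739 CPM in WT IVIg libraries. The groups were far apart and did not overlap. The log2 fold change was -9.31 ± 0.48 (SE, edgeR adjusted p = 9.13e-10), and the exact two-sided permutation test gave p = 0.1, the smallest that 3 libraries against 3 allow. The knockout libraries held 4, 37 and 74 counts of the gene, so transcript was low but not at 0. Clec7a spans chr6:129438554-129449742 (GRCm39), and the 6 libraries match their genotype labels.

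To show the DNA just upstream of Clec7a and of genes that rose beside it, the 250 bases before the annotated start are given for Clec7a and for Klra17, Hebp1 and Emp1, the 3 called genes near it that were higher in the knockout. That start is the one in RefSeq, and whether it is also the start of the gene model that was counted was not tested. The windows come from RefSeq on GRCm38.p6, an older build than that of the counts, and are reference sequence, not that of the mice. Each reads 5′ to 3′ on the gene's own strand, with GAGGAA, the core of a site for the myeloid factor PU.1, or its reverse complement TTCCTC in capitals.
Clec7a, first of 2 entries, chr6:129472780-129473029, minus strand: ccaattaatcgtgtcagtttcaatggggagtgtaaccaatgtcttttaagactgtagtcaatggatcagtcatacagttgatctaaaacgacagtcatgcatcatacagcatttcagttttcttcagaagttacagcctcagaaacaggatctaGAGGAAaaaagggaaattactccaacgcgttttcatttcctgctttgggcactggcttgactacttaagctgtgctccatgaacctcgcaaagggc
Klra17, chr6:129876673-129876922, minus strand: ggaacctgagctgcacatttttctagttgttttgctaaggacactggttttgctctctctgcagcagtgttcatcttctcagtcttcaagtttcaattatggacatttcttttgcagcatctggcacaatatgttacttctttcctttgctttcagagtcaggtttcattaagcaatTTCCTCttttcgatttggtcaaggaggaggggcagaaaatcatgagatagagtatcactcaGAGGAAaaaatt
Hebp1, chr6:135168216-135168465, minus strand: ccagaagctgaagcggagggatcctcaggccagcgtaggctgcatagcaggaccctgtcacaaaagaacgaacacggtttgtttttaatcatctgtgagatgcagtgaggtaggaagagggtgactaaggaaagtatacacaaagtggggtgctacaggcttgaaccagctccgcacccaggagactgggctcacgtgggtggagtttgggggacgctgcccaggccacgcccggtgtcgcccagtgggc
Emp1, first of 2 entries, chr6:135362681-135362930, plus strand: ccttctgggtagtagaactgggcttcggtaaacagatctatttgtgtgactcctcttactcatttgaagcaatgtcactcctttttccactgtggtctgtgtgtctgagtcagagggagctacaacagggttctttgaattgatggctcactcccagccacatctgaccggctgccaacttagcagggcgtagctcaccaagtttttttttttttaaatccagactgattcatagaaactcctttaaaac
The Clec7a window holds GAGGAA once, starting 96 bases before the start, and the Klra17 window holds it once on each strand. The windows of Hebp1 and Emp1 hold neither form. Of all 32851 promoter windows of that length, 23.3% hold the motif on one strand or the other, and a match is only a description of the letters. Of the 8 called genes of chromosome 6, 6 have an entry in the RefSeq table.

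Called genes near Clec7a that belong to no lectin family were Emp1, Hebp1 and Eps8, which start 5.90, 5.68 and 8.02 Mb from it. Emp1 (chr6:135339543-135360171), which encodes an epithelial membrane protein, had 422, 421 and 357 CPM in Dectin-1 knockout IVIg libraries and 5.23, 4.40 and 6.66 CPM in WT IVIg libraries. Every knockout library was far above every WT library, and the log2 fold change was 6.20 ± 0.58 (SE; edgeR adjusted p = 3.10e-06). Hebp1 (chr6:135114520-135175020), a heme-binding protein, had 110, 64.1 and 71.5 CPM in knockout libraries and 1.66, 3.71 and 3.02 CPM in WT libraries. These groups were also wide apart, with a log2 fold change of 4.85 ± 0.38 (edgeR adjusted p = 2.54e-07). The span of Hebp1 overlaps 4 other genes of the annotation, and reads in such overlaps were counted for each gene. One of these, Fam234b on the opposite strand, had 40.6, 28.1 and 33.4 CPM in knockout libraries against 12.96, 22.98 and 13.85 CPM in WT libraries, without overlap of the groups but short of the threshold (log2 fold change 1.02 ± 0.29, edgeR adjusted p = 0.639).

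Eps8 (chr6:137454243-137631874), an actin regulator and substrate of receptor tyrosine kinases, fell. Its span overlaps 1 other gene of the annotation. It had 4.89, 3.35 and 8.26 CPM in Dectin-1 knockout IVIg libraries against 71.9, 77.3 and 60.3 CPM in WT IVIg libraries. The highest knockout value was far below the lowest WT value, and the log2 fold change was -3.64 ± 0.32 (edgeR adjusted p = 2.73e-06).

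The other called genes near Clec7a were killer cell lectin-like receptors (Klr genes), which lie on both sides of it. Of 29 members on the list, 17 passed the filter on low counts and 16 of those lie within 10 Mb. Klra17 rose, and Klri2, Klrk1 and Klrb1b fell. The median log2 fold change of the 17 was -1.61, with 12 negative and 5 positive, beside -0.02 over all genes tested, and with PBS it was -1.34. The median rests on which libraries and members enter. It lay between -1.56 and -0.20 when 1 library was left out, nearest to 0 without knockout replicate 3 (-0.20) and without knockout replicate 1 (-0.38), and was -0.22 without the low-count filter and -0.60 without the shallow library. Without knockout replicate 2 it was -1.56, and without WT replicates 1, 2 or 3 it was -1.11, -0.74 or -0.81. Reads can fit more than 1 near-identical member of this family, so the level of any 1 member is uncertain.

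Klra17 (chr6:129808117-129853635), a member of the Ly49 receptor family, had 58.95, 34.8 and 45.9 CPM in Dectin-1 knockout IVIg libraries and 2.06, 2.85 and 2.37 CPM in WT IVIg libraries. Its groups did not overlap, its span overlaps 2 other genes, and the log2 fold change was 4.24 ± 0.36 (edgeR adjusted p = 9.07e-07). Klri2 (chr6:129706004-129717447), a lectin-like receptor, had 0 counts in all 3 knockout libraries against 3.75, 13.9 and 5.70 CPM in WT libraries, at least 285-fold lower against a limit of 3 counts over the knockout group (edgeR adjusted p = 0.00353). Klrk1 (chr6:129587286-129600827), the gene of the activating receptor NKG2D, had 10.6, 4.72 and 7.72 CPM in knockout libraries and 20.996, 39.6 and 17.9 CPM in WT libraries. It was the called gene with the smallest fold change (log2 -1.84 ± 0.33, edgeR adjusted p = 0.0430), and its groups did not overlap. Klrb1b (chr6:128790669-128803294), an inhibitory receptor whose ligand is encoded by Clec2d, had 0, 0.0233 and 0.0210 CPM in knockout libraries, which is 0, 1 and 1 counts, against 2.20, 2.29 and 1.11 CPM in WT libraries. Its groups did not overlap (log2 fold change -6.39 ± 1.12, edgeR adjusted p = 0.0430). The span of Klrb1b overlaps 1 other gene of the annotation, Gm44511, which was also lower (log2 fold change -3.09) but not called. By contrast Klra2, the most abundant member of the family in these monocytes, had 269, 266 and 193 CPM in knockout libraries and 234, 322 and 286 CPM in WT libraries, and these ranges overlapped (log2 fold change -0.21 ± 0.31).

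Some receptor genes next to Clec7a had groups that did not overlap although they missed the threshold. They are given as values, and were chosen after their values were seen. Klri1, the sister gene of Klri2, had 0, 0.233 and 1.01 CPM in Dectin-1 knockout IVIg libraries against 3.37, 10.2 and 3.71 CPM in WT IVIg libraries (log2 fold change -3.44 ± 0.75, edgeR adjusted p = 0.115). Clec2i, a C-type lectin-related protein, had 41.6, 30.2 and 37.2 CPM in knockout libraries and 120, 59.2 and 69.1 CPM in WT libraries (log2 fold change -1.19 ± 0.26, edgeR adjusted p = 0.158). Clec9a, the dead-cell receptor of cross-presenting dendritic cells, had 3.40, 1.16 and 3.75 CPM in knockout libraries and 7.29, 16.3 and 6.503 CPM in WT libraries (log2 fold change -1.91 ± 0.43, edgeR adjusted p = 0.171). Klrd1, which encodes CD94, had 4.33, 3.19 and 6.10 CPM in knockout libraries and 9.94, 37.2 and 13.8 CPM in WT libraries (edgeR adjusted p = 0.175). In each of these genes every knockout library lay below every WT library. A predicted gene, Gm44223, ran the other way, with 1.92, 2.47 and 2.03 CPM in knockout libraries and no count in any WT library, at least 99.7-fold higher against 3 counts over the WT group (edgeR adjusted p = 0.116).

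In all, 19 of the 43 genes tested within 1 Mb were lower in every knockout library than in any WT library, 2 were higher, and 22 overlapped. Of all genes tested, 3.7% were lower and 2.52% higher without overlap. Further separated receptor genes were Olr1, a receptor for oxidised lipoprotein, with 1.55, 3.91 and 6.19 CPM in Dectin-1 knockout IVIg libraries and 12.7, 12.4 and 6.72 CPM in WT IVIg libraries (edgeR adjusted p = 0.867). Clec1b, the podoplanin receptor of platelets, had 0, 0.767 and 0.755 CPM in knockout libraries and 1.83, 3.69 and 1.20 CPM in WT libraries (edgeR adjusted p = 0.965). Among the neighbours that overlapped, Clec12a, an inhibitory myeloid lectin receptor, had 611, 256 and 272 CPM in Dectin-1 knockout IVIg libraries and 271, 402 and 461 CPM in WT IVIg libraries (log2 fold change 0.00 ± 0.37). Cd69, an early activation lectin, had 7.92, 5.91 and 4.53 CPM in knockout libraries and 4.03, 5.76 and 8.81 CPM in WT libraries (log2 fold change -0.08 ± 0.31). The values of both groups were interleaved in each gene. The list of the Dectin-2 cluster and other myeloid lectins, 29 members tested, had Clec7a as its only call, and its median log2 fold change was -0.16, or 0.01 without its 18 members near Clec7a, beside -0.02 over all genes tested. Of the Dectin-2 cluster Clec4e (Mincle), a receptor for mycobacterial glycolipid, had 76.2, 67.3 and 36.8 CPM in knockout libraries and 42.3, 41.8 and 39.8 CPM in WT libraries (log2 fold change 0.53 ± 0.26, edgeR adjusted p = 1).

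By distance, the calls were not spread evenly. Of the 43 genes starting at most 1 Mb away, 5 passed (11.6%), from over 1 to 5 Mb none of 88, from over 5 to 10 Mb 3 of 94 (3.19%), and from over 10 to 20 Mb none of 143. At an unadjusted p under 0.05, which 3.45% of all genes reached in edgeR, the counts were 22, 5, 12 and 11 genes in these 4 distance ranges. Within 1 Mb, 19 of these 22 were lower in the knockout, and from over 5 to 10 Mb 8 of 12 were higher. Groups that did not overlap, with the knockout higher, were found for 2.52% of all genes, and with the knockout lower for 3.7%. Within 10 Mb they were 18 and 27 of 225 genes, and 19 of the 27 lay within 1 Mb. The genes next to the 10 Mb limits were not near the threshold of the test. On the side of lower coordinates these were Fbxl14 inside (log2 fold change -0.10 ± 0.26) and Adipor2 outside (-0.09 ± 0.18), and on the other side Mgst1 inside (0.10 ± 0.34) and Plekha5 outside (-0.18 ± 0.52).

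**Figure D2:**
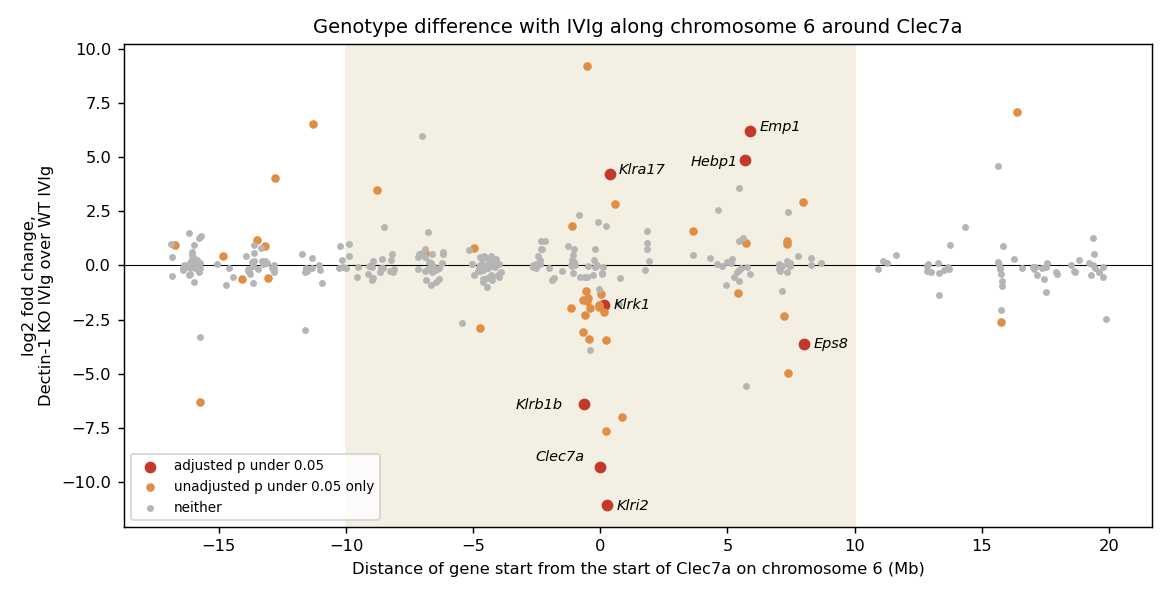
Log2 fold change of Dectin-1 knockout IVIg over WT IVIg (vertical) for each tested gene starting within 20 Mb of Clec7a on chromosome 6. The horizontal axis is the distance of its start from that of Clec7a in Mb, and the 10 Mb window is shaded. Red points are the 8 called genes of the window, 5 of them within 1 Mb and 3 between 5 and 10 Mb. Fitted fold changes of genes with a group at 0, such as Klri2, depend on the prior count and are no bounds.

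The same genotype difference was measured in PBS mice, whose 6 libraries are separate from the 6 above, with 2 of the 3 knockout libraries sharing a title code. There 7 genes were called (0.0411%), and 6 of them are also called with IVIg, namely Clec7a, Hebp1, Klra17, Eps8, Emp1 and Klri2. The other was Gm9574, a predicted gene on chromosome 17. Log2 fold changes with IVIg and with PBS were 4.85 and 4.61 for Hebp1, 4.24 and 3.91 for Klra17, and -3.64 and -3.57 for Eps8. Emp1 had 6.20 and 4.55, with WT PBS libraries at 24.5, 25.8 and 2.48 CPM after knockout PBS libraries at 527, 370 and 338 CPM. Klrk1 and Klrb1b were also lower in the PBS knockout, at -1.27 and -5.35, but not called there (edgeR adjusted p = 0.565 and 0.274). No gene passed the test of the difference between the IVIg and the PBS genotype differences (0% in edgeR, with 639 genes at an unadjusted p under 0.05, 1 call in DESeq2 and 0 in limma voom). For Clec7a that difference was -1.66 ± 0.61 and for Emp1 1.65 ± 0.68 on the log2 scale, and neither passed (edgeR adjusted p = 0.998 for both).

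Among the genes at unadjusted p under 0.05 with IVIg, Clec7a left out, 34 of 38 near Clec7a (89.5%) had the same sign with PBS. Elsewhere this was so for 289 of 549 (52.6%). Of the 34 genes, 18 also reached an unadjusted p under 0.05 with PBS, and of the 549 elsewhere 26 did so with the same sign.

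**Figure D3:**
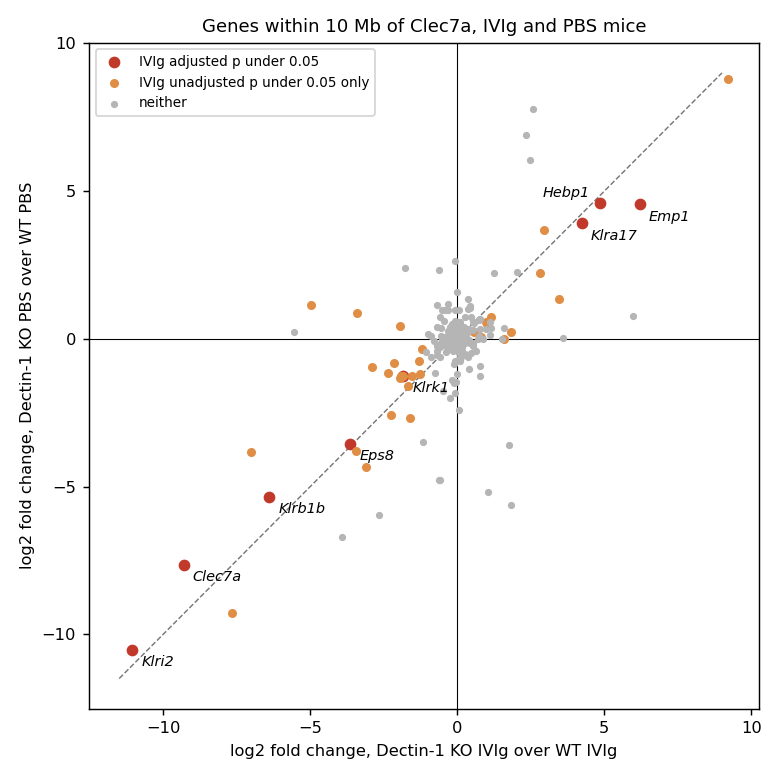
Log2 fold change of Dectin-1 knockout over WT for the 225 genes within 10 Mb of Clec7a, with IVIg (horizontal) and with PBS (vertical), from separate mice, and the line of equal values dashed. The 8 called genes have the same sign on both axes, with Hebp1 at 4.85 and 4.61. Points at extreme values include genes with a group at 0, whose fitted values are no bounds.

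Elsewhere in the genome the single called gene was Retnlg, on chromosome 16 (chr16:48692984-48694859), a secreted resistin-like protein of neutrophils. It had 18.7, 53.7 and 4.51 CPM in Dectin-1 knockout IVIg libraries, against 0.281, 2.89 and 0.710 CPM in WT IVIg libraries. The groups did not overlap, but knockout replicate 3 was close to the highest WT library. The log2 fold change was 4.27 ± 0.79 (edgeR adjusted p = 0.0430), and with PBS 0.68 ± 1.44. The call held in 7 of 18 alternative settings, and its log2 fold change lay between 2.98 and 5.68 over them. It was lost without knockout replicate 1 or 2, without WT replicate 1 or 3, without the shallow library, and in limma voom, among others.

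Of the neutrophil list, all 22 members tested had a positive log2 fold change, with a median of 3.83, between 2.64 and 5.45 when 1 library was left out, against -0.02 over all genes tested and 0.36 for the list with PBS. Retnlg was its only call, 14 members were higher at an unadjusted p under 0.05 in edgeR, and 6 had groups that did not overlap, all higher. Of all 17040 genes tested, 302 were higher at that unadjusted p, and 2.52% were higher without overlap. Of its other members, 3 genes of granule and calcium-binding proteins are given, chosen after their values were seen. Ltf, the iron-binding granule protein lactoferrin, had 59.4, 216 and 2.52 CPM in knockout libraries against 0.281, 2.29 and 0.688 CPM in WT libraries (log2 fold change 6.37 ± 1.27, edgeR adjusted p = 0.1001). S100a8, a subunit of calprotectin, had 113, 250 and 14.6 CPM in knockout libraries against 1.10, 15.3 and 2.55 CPM in WT libraries (log2 fold change 4.30 ± 0.93, edgeR adjusted p = 0.126). Camp, the cathelicidin precursor, had 25.2, 56.4 and 0.210 CPM in knockout libraries against 0.141, 0.389 and 0.0444 CPM in WT libraries (edgeR adjusted p = 0.1001). Knockout replicates 1 and 2 were high in each of these genes, and replicate 3 lay in or near the WT range. Replicate 2 was the highest knockout library for 19 of the 22 members and replicate 3 the lowest for 18.

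Ly6g, the surface marker that defines neutrophils, had 4.83, 5.30 and 0 CPM in Dectin-1 knockout IVIg libraries against 0, 0.553 and 0 CPM in WT IVIg libraries. Summed over the list, neutrophil transcripts came to 1461, 2406 and 794.2 CPM in knockout libraries and 740.6, 490.5 and 966.8 CPM in WT libraries. Most of the WT sum was Cd177 and Csf3r, which all 6 monocyte libraries held above 100 CPM. The sums over the whole list overlapped between the groups. Cd177, Csf3r, Mmp8 and Padi4 were then left out, a choice made after their values were seen. Without them, the other 18 members summed to 569.8, 1505 and 71.23 CPM in knockout libraries. In WT libraries they summed to 9.49, 68.87 and 20.62 CPM, so replicate 3 of the knockout was close to the highest WT library. The part that neutrophils in the sorted cells had in these values was not tested. Without knockout replicate 3, 28 genes were called, 22 of them elsewhere than near Clec7a and 12 of them of the neutrophil list, and without replicate 1 or 2 none of the neutrophil list was called.

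**Figure D4:**
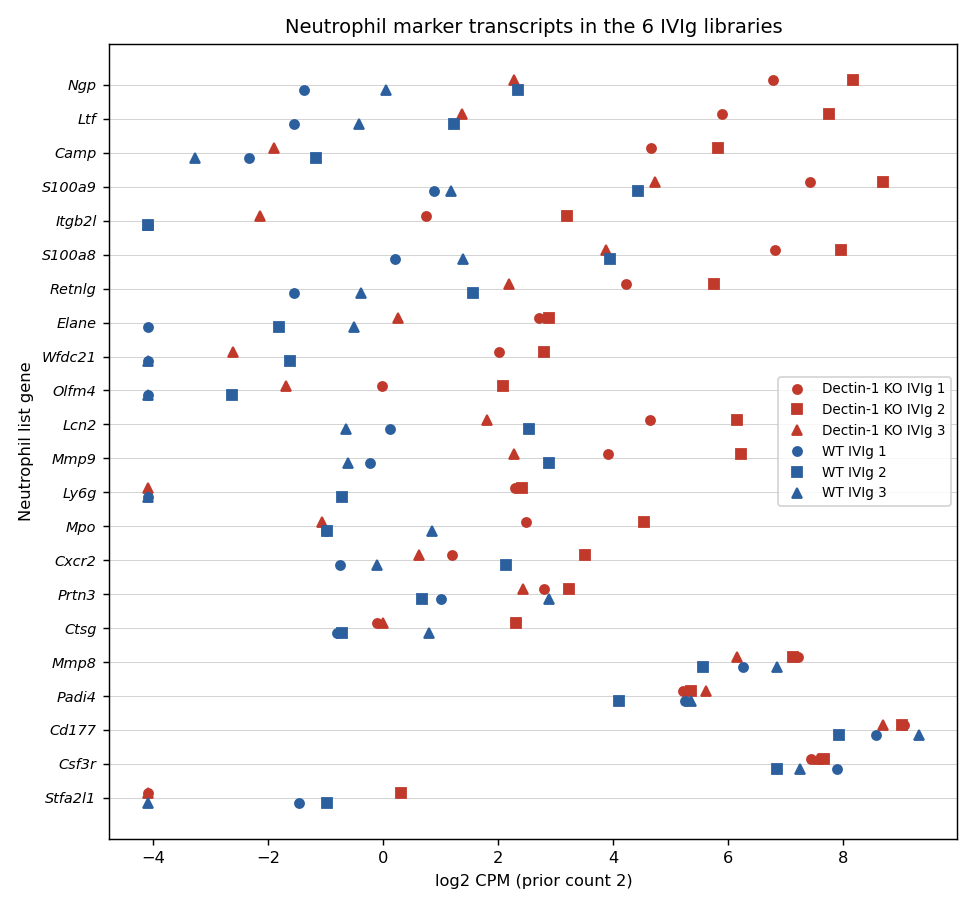
Log2 CPM (prior count 2) of the 22 neutrophil list genes tested (rows, ordered by the difference of group means) in the 3 Dectin-1 knockout IVIg libraries (red) and the 3 WT IVIg libraries (blue), with the replicate shown by the marker's shape. Replicates 1 and 2 of the knockout stand to the right in most rows, and replicate 3 lies nearer to the WT libraries.

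No gene of the Dectin-1 signalling pathway was called. Of 32 genes on the list, all tested, 16 were positive and 16 negative, with a median log2 fold change of -0.02. None of them reached an unadjusted p under 0.05. Card9 had 54.1, 32.6 and 52.4 CPM in Dectin-1 knockout IVIg libraries and 70.6, 27.9 and 35.4 CPM in WT IVIg libraries, and the ranges overlapped. Its log2 fold change was 0.05 ± 0.35. Syk had 403, 626 and 799 CPM in knockout libraries and 724, 295 and 407 CPM in WT libraries, again with overlap. Malt1, a protease of the Card9 complex and the member with the smallest p, had a log2 fold change of -0.42 ± 0.25 (edgeR unadjusted p = 0.105).

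Nor was any Fc gamma receptor called. Fcgr2b, the inhibitory receptor, had 226, 260 and 251 CPM in Dectin-1 knockout IVIg libraries and 229, 318 and 226 CPM in WT IVIg libraries. The knockout values lay within the WT range, and the log2 fold change was -0.07 ± 0.24. The activating receptors Fcgr1, Fcgr3 and Fcgr4 had log2 fold changes of 0.34 ± 0.25, 0.00 ± 0.23 and -0.45 ± 0.38, each with overlapping groups and edgeR adjusted p = 1. Over the 8 genes of the list the median was 0.03. Signalling genes downstream of Fc receptors, 32 tested, had a median of 0.03 and no call. A missed threshold does not show that these genes are alike between the genotypes.

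No marker of either monocyte subset was called. Of the 33 non-classical markers, 29 were negative and 4 positive, and the median log2 fold change was -0.25, between -0.36 and -0.07 when 1 library was left out, against 0.34 with PBS. Spn (CD43) had 725, 889 and 975 CPM in Dectin-1 knockout IVIg libraries and 984, 1239 and 979.7 CPM in WT IVIg libraries (log2 fold change -0.31 ± 0.25). Its groups were thus parted narrowly. Spn was 1 of 2 of the 33 markers whose groups did not overlap, both lower in the knockout. Of all genes tested, 3.7% were lower in this way, so the count is not read as a result about the list. Cd36, a scavenger receptor, had 173, 226 and 142 CPM in knockout libraries and 160, 555 and 208 CPM in WT libraries, where WT replicate 2 was high (log2 fold change -0.77 ± 0.42, edgeR adjusted p = 1). The 30 classical markers had a median of 0.12, between -0.08 and 0.28 when 1 library was left out, and no call. Interferon-stimulated genes, 40 tested, were positive in 32 with a median of 0.18, between 0.03 and 0.27 when 1 library was left out, and no call. The separate list of interferon-induced GTPases, 16 tested, was positive in 11 with a median of 0.12 and no call. Of these Gbp3 had 125, 117 and 120 CPM in knockout libraries against 68.4, 63.6 and 79.5 CPM in WT libraries. Its groups did not overlap (log2 fold change 0.77 ± 0.21, edgeR adjusted p = 0.524).

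The 13 listed genes of the mitochondrial genome, which are not all of its genes, each had a negative log2 fold change. Their median was -1.01, against -0.09 with PBS. None was called, and 6 had groups that did not overlap, all lower in the knockout. Of all genes tested, 3.7% were lower in this way. mt-Nd4, a subunit of respiratory complex I, had 187, 216 and 233 CPM in Dectin-1 knockout IVIg libraries and 469, 528 and 331 CPM in WT IVIg libraries (log2 fold change -1.06 ± 0.28, edgeR adjusted p = 0.463). mt-Co1, a subunit of cytochrome c oxidase and the most abundant of them, had 2351, 2240 and 2538 CPM in knockout libraries and 4010, 4529 and 3458 CPM in WT libraries. In both genes every knockout library lay below every WT library. Outside the list, mt-Tl1 and mt-Tm, chosen after their values were seen, were lower with both treatments, and neither was called. The log2 fold change of mt-Tl1 was -0.88 with IVIg and -0.88 with PBS, and that of mt-Tm -1.37 and -1.01. Mitochondrial genes took 0.638%, 0.587% and 0.655% of all counts in knockout libraries and 1.03%, 1.26% and 0.842% in WT libraries. Nuclear genes of the respiratory chain, 60 tested, had a median of 0.08 with 47 positive and no call. That median lay between -0.21 and 0.23 when 1 library was left out. With PBS it was 0.46, with all 60 positive. Whether RNA quality or handling had a part in the mitochondrial share was not tested. mt-Nd2 and mt-Nd4 were called in the fit without the shallow FcgRIIb knockout library, and mt-Nd2 also in limma voom.

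Marker lists of other cells were measured in the same way. Of 20 B cell genes 17 were positive, with a median of 1.08 and no call. That median was 0.23 without knockout replicate 2, and between 0.79 and 1.54 without any other 1 of the 6 libraries. The summed B cell transcripts overlapped, with 622.2, 585.0 and 442.3 CPM in Dectin-1 knockout IVIg libraries and 494.7, 480.8 and 717.8 CPM in WT IVIg libraries. Ms4a1 (CD20) had 10.5, 17.0 and 4.32 CPM in Dectin-1 knockout IVIg libraries against 4.17, 4.38 and 1.40 CPM in WT IVIg libraries. Its groups overlapped. Plasma cell genes had a median of -0.62 over 14 tested, between -1.01 and 0.02 when 1 library was left out, and Jchain had 6.43, 2.26 and 6.14 CPM in knockout libraries and 3.80, 20.3 and 89.4 CPM in WT libraries, where replicate 3 was high. T cell genes, 25 tested, had a median of 0.36 and no call, against -0.97 with PBS. The median was -0.02 without knockout replicate 2, 0.73 without knockout replicate 3 and 0.69 without WT replicate 2, so its sign turned with 1 library. Natural killer cell genes had a median of 0.06 over 19 tested and 0.82 over the 10 that do not lie near Clec7a, and both calls of the list, Klri2 and Klrk1, lie near it. The median over the 19 was -1.35 without knockout replicate 2, 0.98 without WT replicate 2, -0.22 without WT replicate 3, 0.12 without WT replicate 1, 0.32 without knockout replicate 1 and 0.00 without knockout replicate 3, so no direction is given for it. The defining marker Ncr1 had 0, 0.535 and 0.566 CPM in knockout libraries and 0.937, 0.164 and 0.266 CPM in WT libraries, below 1 CPM in all 6 libraries. Summed over the list, natural killer transcripts came to 20.5, 19.6 and 23.7 CPM in knockout libraries and 40.5, 99.0 and 42.5 CPM in WT libraries, and Klrk1, Klrd1 and Klri2 made up most of the sum in each WT library. The part of natural killer cells in the Klr differences was not tested beyond these values.

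**Figure D5:**
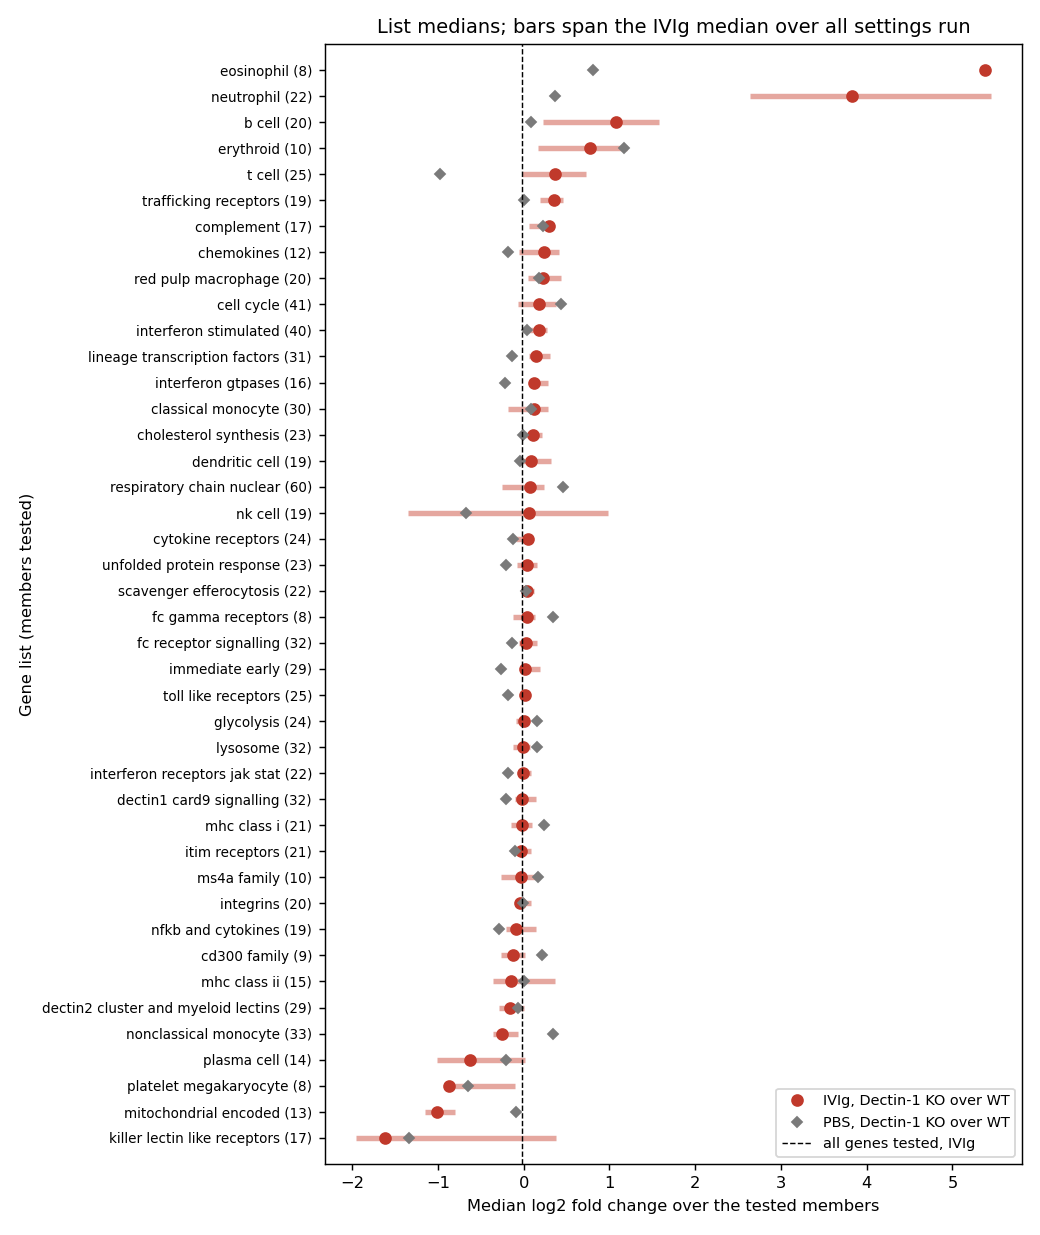
Median log2 fold change of Dectin-1 knockout over WT for each gene list with its number of tested members, with IVIg (red circles) and with PBS (grey diamonds), beside the median of all genes tested with IVIg (dashed line). Pale bars span the IVIg median over all settings run. The neutrophil list stands at 3.83 with IVIg and 0.36 with PBS, and the Klr list at -1.61 and -1.34.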

How the data were processed

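RNA of monocytes sorted from mouse spleens was sequenced from 18 libraries. Per the file headers, the authors counted read pairs per gene with featureCounts 2.0.2 on Ensembl release 104 (GRCm39), allowing a pair to count for each gene it overlapped and with no strand option, although per the labels' protocols the library kit marks strand. The deposited values are raw counts, and STAR is the aligner per the submitters' processing notes. Exon length, another value of the deposited table, served only for the length alternative. Of the table's columns, 18 belong to no sample here and were not used. The 1492 genes without a symbol held 0.125% to 0.45% of the counts per library.

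Counts were fitted with edgeR 4.0.16 (R 4.3.3), with TMM scaling, filterByExpr and quasi-likelihood F-tests, over all 18 libraries in 6 groups with 12 residual degrees of freedom, and p-values were adjusted by Benjamini-Hochberg over 17040 genes at 0.05. CPM used TMM-scaled library sizes. The SE of an edgeR log2 fold change was taken as its absolute value divided by the square root of its F statistic. It is therefore approximate, above all for genes with few counts in a group. DESeq2 1.42.0 and limma 3.58.1 were alternatives, among other filters, scalings and left-out libraries. The fit was tested on simulated data. The rule for named genes took Clec7a and 4 Fc gamma receptors, all called genes near Clec7a, the called genes elsewhere, and from each list up to 3 called members or else the 2 with the smallest unadjusted p. Some genes that the rule took from lists without a call, such as Fcnb, Itgax and Thy1, are not described. Genes named outside the rule were chosen after their values were seen. The members and lists were chosen with earlier results of these data known. Depth was 16996494 to 48958909 counts in the 6 libraries compared.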

Additional observations from a re-analysis of the deposited data

How the results depend on the processing

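No paired analysis was possible because the labels give no replicate numbers, and the numbers used here follow accession order only. Clec7a, Hebp1, Klra17, Eps8 and Emp1 were called in all 18 alternative settings, Klri2 in 16, Klrk1 in 11, Klrb1b in 8 and Retnlg in 7. The count of 9 calls became 23 in DESeq2 (12 higher, 11 lower, 13 within 10 Mb of Clec7a and 10 elsewhere), 16 without the low-count filter (11 higher, 7 elsewhere) and 5 in the fit on the 6 libraries alone (2 lower, 5 within 10 Mb, 0 elsewhere). Calls lower in the knockout were 3 in the fit on Dectin-1 knockout and WT libraries only and 3 with the length trend removed. Calls elsewhere were 0 in both of these and in the legacy quasi-likelihood fit, 2 without the shallow library, and 0 without the most alike pair of WT libraries, a setting chosen after seeing the data. A window of 5 Mb held 5 calls and left 4 elsewhere. Leaving out each library in turn gave 6 to 28 calls, 3 to 25 higher, 3 to 5 lower and 0 to 22 elsewhere, with the highest totals without knockout replicate 3.

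Signs turned for genes that were not called. The log2 fold change of Fcgr3 was -0.005115 without the low-count filter, -0.0007628 without the shallow library, -0.007238 without immunoglobulin, haemoglobin and mitochondrial genes, -0.1016 in limma voom and -0.1276 without the alike pair. In limma voom the log2 fold change of Fcgr2b was 0.0214 and the log2 fold change of Itga2b was 0.9612. Leaving out each library in turn gave -0.1483 to 0.1255 for Fcgr3, -0.1683 to 0.1101 for Fcgr2b, -0.7996 to 0.3014 for Fcgr4, -0.0004612 to 0.8744 for the log2 fold change of Cblb, -5.574 to 3.079 for Socs2, -0.9571 to 0.4472 for H2-DMb2, -0.8558 to 0.3734 for H2-Ob, -0.01323 to 0.8872 for H2-Q6, -0.6285 to 2.314 for Ccl24, -1.132 to 0.04813 for Ccl5, -0.0259 to 2.166 for Cr2 and -3.93 to 0.08326 for Igha. The cause was not tested. With 3 libraries a group, an exact permutation test of 1 gene cannot go below p = 0.1.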

Other observations

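Eosinophil transcripts, a list added after their values were seen, had a positive log2 fold change in 7 of 8 genes tested, none called, with a median of 5.38. Prg2, the major basic protein of eosinophil granules, had 11.4, 36.4 and 0 CPM in Dectin-1 knockout IVIg libraries and 0, 0 and 0.510 CPM in WT IVIg libraries. Epx, eosinophil peroxidase, had 2.78, 5.35 and 0 CPM in knockout libraries and 0 CPM in each WT library. For 7 of the 8 genes replicate 3 was the lowest of the knockout libraries.

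Vpreb3, a gene of immature B cells, had 0.680, 2.72 and 0.545 CPM in knockout libraries and 0.0469, 0.143 and 0.111 CPM in WT libraries, without overlap (edgeR adjusted p = 0.0605). Dpp4 (CD26) had 21.6, 56.2 and 33.2 CPM in knockout libraries and 95.7, 123.05 and 103.8 CPM in WT libraries, without overlap (edgeR adjusted p = 0.183).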
